A study of Mus musculus with 5 samples.

Results

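The 7 genes described here encode proteins of the complement system: C1qa and C1qb, C4b, C3, Cfb, Cfi and C8a. They were picked out by symbol from the 27998 genes measured, with earlier results of these data in view, so every level below is a description and carries no test. Another 46 genes of the pathway were read beside them. The material was 5 libraries of single nuclei from kidneys of male mice aged 10 to 12 weeks, 1 library per group, so no difference has a replicate check. The study's subject is glucose metabolism of the proximal tubule after acute kidney injury.

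Every animal had 3 alleles, the Six2-TGC transgene, Rosa26rtTA and the reporter pTRE-H2BeGFP, and ate doxycycline in its food at 625 mg/kg, which marks nuclei of the Six2 lineage, the progenitors of the nephron tubule, with a green histone. Nuclei were sorted on that mark. The 3 injured groups are GFP-positive nuclei at 64 h, 96 h and 28 d after ischemia-reperfusion injury (IRI), in which both renal pedicles were clamped and released. GFP-positive and GFP-negative nuclei without injury are the other groups, and the labels do not say whether those mice had a sham operation. Serum creatinine at harvest was 0.122 mg/dL without injury, 0.375 and 0.312 mg/dL at the early times of 64 h and 96 h and 0.144 mg/dL in the mice of 28 d. Blood urea nitrogen was 26.1 mg/dL without injury and 37.0, 91.8 and 31.7 mg/dL at 64 h, 96 h and 28 d, so creatinine was highest at 64 h and urea nitrogen at 96 h. Both libraries without injury carry the same serum values.

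Complement is a cascade of plasma proteins, most of them made by the liver, with further synthesis in tissues that include the kidney tubule. C1q, built from the chains of C1qa, C1qb and C1qc, recognises immune complexes and dying cells and starts the classical pathway, in which C4 takes part in the enzyme that cleaves C3. Factor B (Cfb) forms the C3-cleaving enzyme of the alternative pathway, factor I (Cfi) destroys activated C3b and C4b, and C8, of which C8a encodes the alpha chain, belongs to the pore-forming attack complex that ends the cascade.

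Depth differed between libraries. The kept nuclei numbered 3508 and 3338 in the GFP-positive and GFP-negative libraries without injury, and 3012 (64 h), 3202 (96 h) and 3299 (28 d) after IRI. They held 7153971, 3846181, 4500630, 1856284 and 3767530 unique molecular identifiers (UMIs, 1 per captured molecule), in the same order of libraries. The median nucleus at 96 h had 507 UMIs, the lowest of the 5, against 1793.5 in GFP-positive nuclei without injury. Levels are CPM, the UMIs of a gene among each 1000000 UMIs of the summed nuclei, with an exact Poisson 95% interval. Fold differences are ratios of CPM with an exact 95% interval for a pair of counts, and both kinds of interval cover counting error only. A count of 0 is read against a floor of 3 counts, which is 0.419 to 1.62 CPM over a whole library.

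Nuclei were clustered without the complement genes and named from marker genes. In 10 of the 11 classes examined every marker was higher than in the other nuclei of the data, and in the nuclei like thick ascending limb (TAL) 7 of 8 were, with Cldn10 the exception. The same markers gave the names, so these counts describe the classes and are not an independent check. Proximal-tubule-like (PT-like) nuclei, in which 15 of 15 markers were higher, made up 65.3% of GFP-positive nuclei without injury, 61.4% (64 h), 76.1% (96 h) and 65.6% (28 d) after IRI, and 11.5% of the GFP-negative library. A separate cluster led by Vcam1, Krt20, Havcr1 and Csf1, known genes of tubule injury, was left without a cell type name and is called the injury-led cluster. It held 2.37%, 11.0%, 5.00% and 9.76% of nuclei in the GFP-positive libraries without injury and at 64 h, 96 h and 28 d, and none in the GFP-negative library. Macrophage and dendritic-like nuclei numbered 120 in the GFP-negative library and 2, 3, 3 and 30 in the GFP-positive libraries without injury and at 64 h, 96 h and 28 d.

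On GRCm38 (GENCODE M21), 3 of the genes lie on chromosome 17 and 3 on chromosome 4. C3 (ENSMUSG00000024164) is at chr17:57203970-57228136, C4b at chr17:34728380-34743882 and Cfb at chr17:34856374-34862518, all on the minus strand. C1qa is at chr4:136895917-136898803 and C1qb at chr4:136880129-136886187, with C1qc between them at chr4:136889804-136893065. C8a is at chr4:104815679-104876398, all again on the minus strand, and Cfi is at chr3:129835884-129875332 on the plus strand. C4a, a near-identical copy of C4b at chr17:34809092-34823464, is not among the genes analysed here, so counts of C4b are uncertain in their assignment. Cfb overlaps Gm20547 on the same strand, which had no UMI, and C8a overlaps Gm17662 on the opposite strand.

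The 250 bases before the transcript start were found for 3 of the 7 genes among the RefSeq promoters (GRCm38.p6), and they are shown because these 3 genes had 3 different distributions over nuclei: PT-like and injury-led nuclei (C3, chr17:57228137-57228386), the straight proximal tubule (C8a, chr4:104876399-104876648) and macrophages (C1qb, chr4:136886201-136886450). Each reads 5′ to 3′ on the minus strand, and capitals mark the 1 match found on searching both strands for TTGCNNAA (C/EBP), GTTAAT (HNF1) and GAGGAA (PU.1).
C3: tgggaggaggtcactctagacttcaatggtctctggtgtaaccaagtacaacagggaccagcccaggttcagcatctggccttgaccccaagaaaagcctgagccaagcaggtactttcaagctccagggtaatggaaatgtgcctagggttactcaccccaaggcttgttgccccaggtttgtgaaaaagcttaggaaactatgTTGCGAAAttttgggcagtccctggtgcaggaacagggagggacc
C8a: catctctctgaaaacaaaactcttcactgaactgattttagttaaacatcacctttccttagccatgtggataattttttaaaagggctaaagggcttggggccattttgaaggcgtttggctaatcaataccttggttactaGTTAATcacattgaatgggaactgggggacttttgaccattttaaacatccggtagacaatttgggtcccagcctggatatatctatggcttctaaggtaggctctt
C1qb: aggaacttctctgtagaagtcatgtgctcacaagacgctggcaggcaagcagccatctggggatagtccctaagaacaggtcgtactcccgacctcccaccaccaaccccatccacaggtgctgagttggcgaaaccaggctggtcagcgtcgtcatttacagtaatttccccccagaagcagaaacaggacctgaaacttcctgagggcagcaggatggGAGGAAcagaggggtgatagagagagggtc
The C3 window held the C/EBP letters 45 to 38 bases before the start, as 9.56% of 32851 such windows do in either orientation. The C8a window held the HNF1 letters 107 to 102 bases before the start (6.43% of windows), and the C1qb window held the PU.1 letters 30 to 25 bases before the start (23.3% of windows). None of the 3 windows matched either of the other motifs. A match of letters is a description of the sequence and not a binding site.

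Without injury the recognition chains C1qa and C1qb were in macrophage and dendritic-like nuclei. In the GFP-negative library C1qa had 33 UMIs in these 120 nuclei, a level of 484 CPM (333 to 679), against 9 UMIs and 2.38 CPM in all other nuclei. C1qb had 21 UMIs and 308 CPM (191 to 470) in them, against 15 UMIs and 3.97 CPM elsewhere. The ratios were 203 (95.1 to 482) for C1qa and 77.5 (38.1 to 162) for C1qb, and 166 (68.0 to 463) for C1qc, the third chain, where 29.0% of the genes with at least 20 UMIs in these nuclei were at least 4 times higher in these nuclei than in the rest. The macrophage-like class thus held 78.6% of the C1qa and 58.3% of the C1qb UMIs of the library.

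At least 1 of the 3 chains was seen in 48 of 120 macrophage and dendritic-like nuclei (40.0%, exact binomial interval 31.2 to 49.3%), against 30 of 3218 other nuclei (0.932%), although the median depth of the macrophage-like nuclei was only 468 UMIs. The 28 d library, sorted for GFP, also had such nuclei. There the chains were seen in 11 of 30 (36.7%, 19.9 to 56.1%), against 19 of 3269 other nuclei (0.581%). C1qa stood at 251 CPM (108 to 494, 8 UMIs) and C1qb at 94.0 CPM (3 UMIs) in those 30 nuclei. In the other GFP-positive libraries the class had 2 or 3 nuclei and gives no level.

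**Figure D1:**
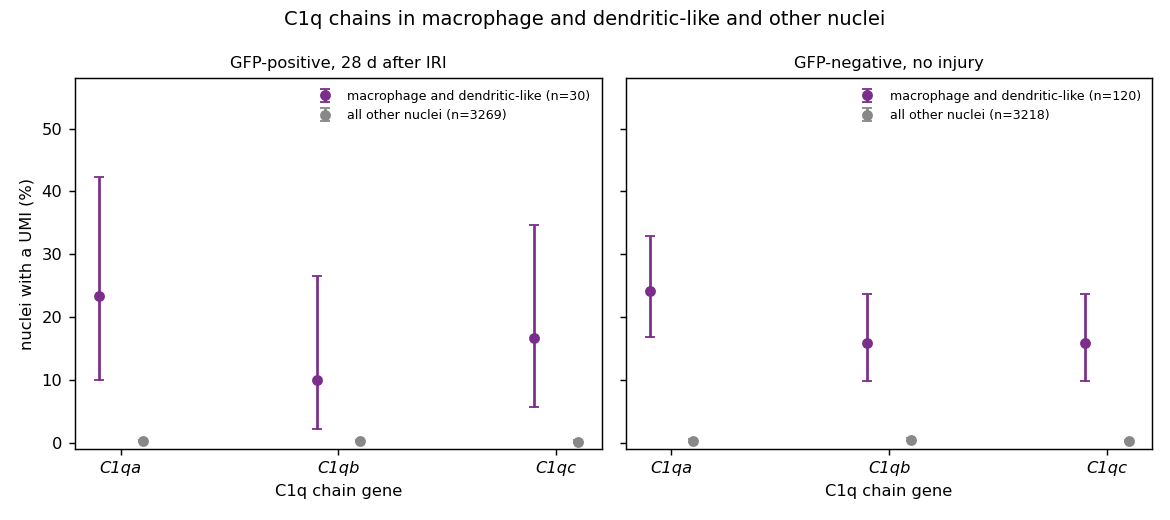
Percent of nuclei with at least 1 UMI of C1qa, C1qb or C1qc in macrophage and dendritic-like nuclei and in all other nuclei, in the 28 d library (left) and the GFP-negative library without injury (right), with exact binomial 95% intervals. In both libraries each chain is seen far more often in the macrophage and dendritic-like nuclei, C1qa in 23.3% of them at 28 d and 24.2% in the GFP-negative library.

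Over whole libraries the C1q chains followed the sort. C1qa had 3 UMIs in GFP-positive nuclei without injury, against 42 in GFP-negative nuclei, a ratio of 0.0384 (0.00761 to 0.120). C1qb had 5 UMIs against 36, a ratio of 0.0747. Of the 7 genes 1 was at least 2 times higher in GFP-positive nuclei and 2 were lower, against 5.80% and 23.4% of all genes with at least 20 UMIs over both libraries. After injury C1qa had 6, 0 and 15 UMIs at 64 h, 96 h and 28 d, and the 28 d library was the one with 30 macrophage-like nuclei. In PT-like nuclei C1qa and C1qb never exceeded 4 UMIs in any library.

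The other 5 genes were seen in the tubule. Without injury most of their UMIs in GFP-positive nuclei were PT-like, but C3 was spread differently from the rest. PT-like nuclei held 83.9% of C8a, 79.1% of Cfb and 77.4% of C4b UMIs in that library, against 38.1% of C3 UMIs. The injury-led cluster, with 2.37% of the nuclei, held 28.6% of the C3 UMIs.

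**Figure D2:**
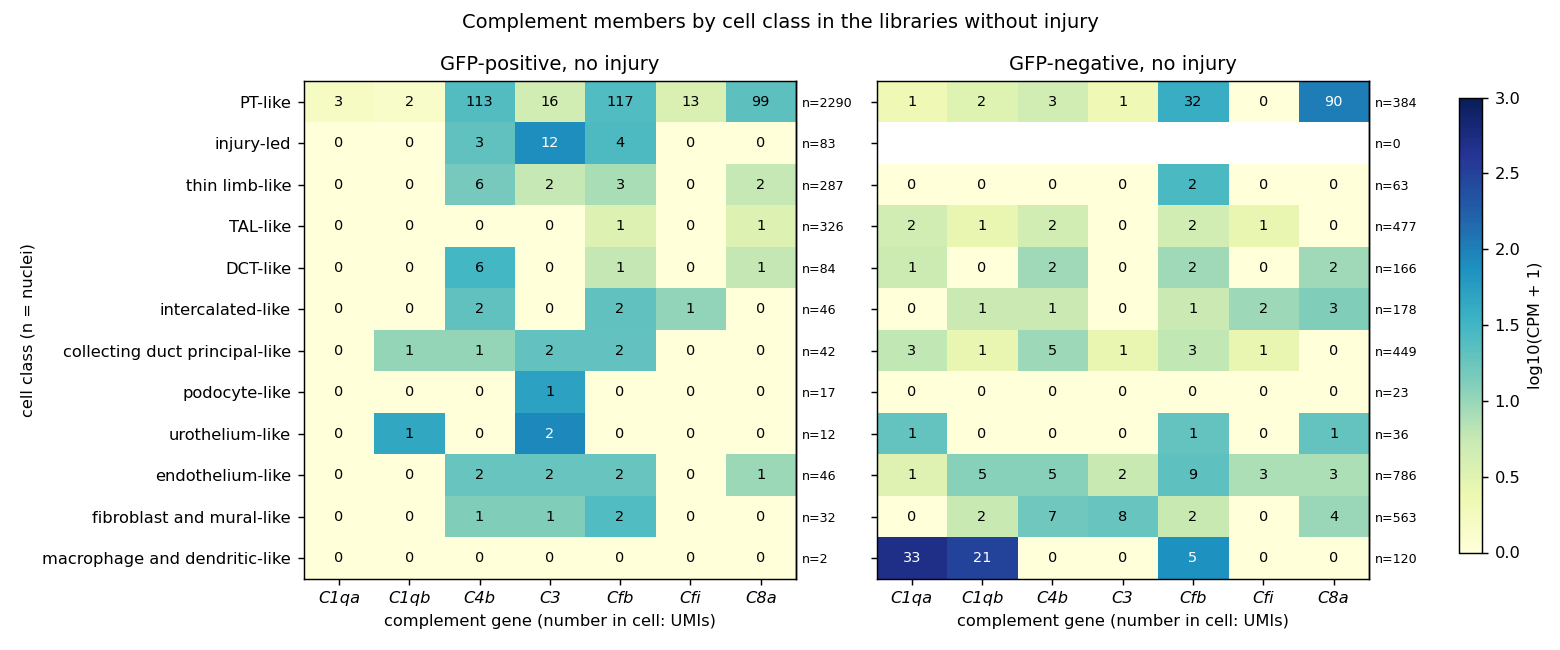
Level of each of the 7 genes (columns) in each class of nuclei (rows) without injury, as log10(CPM + 1) in colour with the UMI count printed in each cell, GFP-positive library left and GFP-negative library right. Among classes with at least 50 nuclei, C1qa and C1qb peak in macrophage and dendritic-like nuclei of the GFP-negative library, C8a in PT-like nuclei and C3 in the injury-led cluster.

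C3, the protein on which all activation routes meet, was low in GFP-positive kidney without injury and higher at every time after IRI. In PT-like nuclei it had 16 UMIs without injury (3.30 CPM, 1.89 to 5.36), 27 at 64 h (9.96 CPM, 6.57 to 14.5), 153 at 96 h (109 CPM, 92.3 to 128) and 26 at 28 d (10.9 CPM, 7.10 to 15.9). The 96 h library stood alone at the top, and the 64 h and 28 d intervals overlapped each other but not the interval without injury. Relative to no injury C3 was 3.02 times as high at 64 h (1.57 to 6.002), 33.0 times at 96 h (19.7 to 59.2) and 3.30 times at 28 d (1.70 to 6.58). The 96 h ratio depended on how nuclei were grouped: it was 14.0 at a coarser clustering, in which most 96 h nuclei stayed unnamed, and 12.4 with complement genes kept in the clustering.

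**Figure D3:**
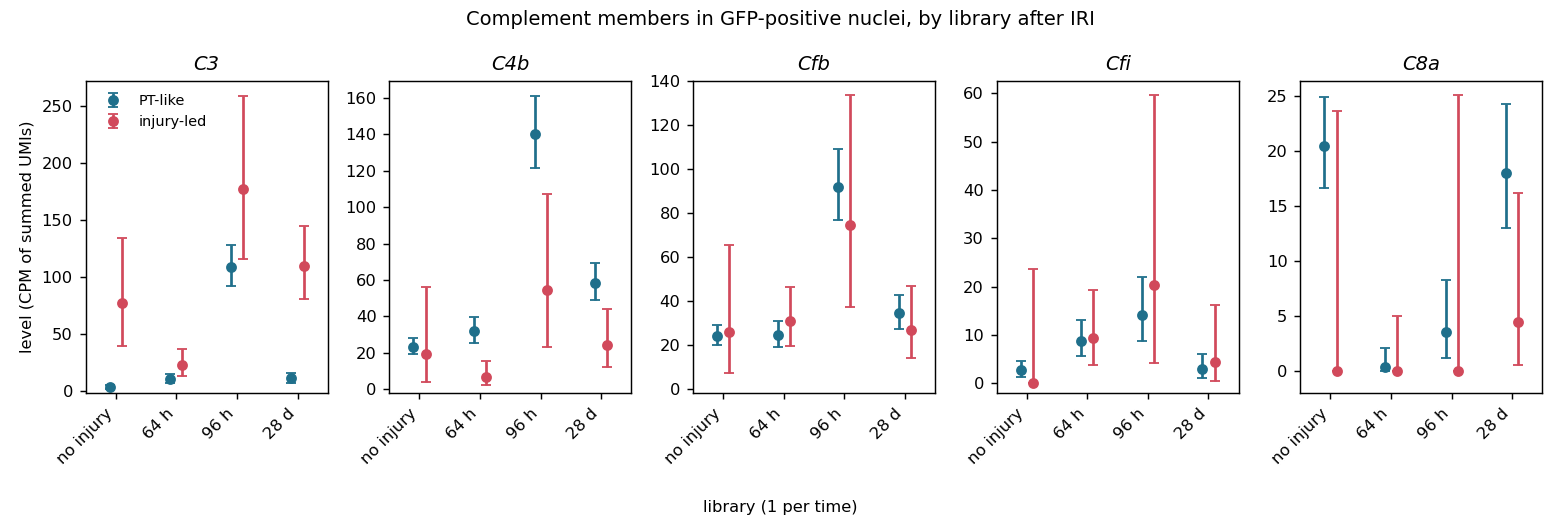
CPM of C3, C4b, Cfb, Cfi and C8a in PT-like nuclei and in the injury-led cluster of the 4 GFP-positive libraries, in the order no injury, 64 h, 96 h and 28 d, with exact Poisson 95% intervals. C3, C4b and Cfb are highest at 96 h in PT-like nuclei, C8a is nearly absent at 64 h, and C3 in the injury-led cluster is at 109 CPM at 28 d.

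Markers of other cells were read in the same PT-like sums. The 15 PT markers together were at 24711 CPM without injury, and at 13781 (64 h), 10434 (96 h) and 23347 CPM (28 d) after IRI. The 10 tubule injury markers summed to 104, 892, 1154 and 199 CPM. The 9 macrophage and dendritic markers summed to 66.6, 51.3, 122 and 96.2 CPM, with Ptprc and Lyz2 at 0 at 96 h. The 10 endothelial markers were at 38.8, 65.3, 140 and 72.8 CPM, and the 11 fibroblast and mural markers at 12.4, 18.8, 27.0 and 18.4 CPM. All 4 of these other lists were highest at 96 h, as were C3, C4b and Cfb, and the part of the other cells in these levels was not tested.

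The PT-like nuclei of different times lay in different clusters. Without injury most were in clusters 6 and 14, at 64 h in cluster 8, at 96 h in cluster 13 (1779 of 2437 nuclei) and at 28 d in clusters 7 and 6. Within a single cluster C3 was still highest at 96 h: cluster 9 had 23.0 CPM without injury (2 UMIs, up to 83.2), 8.16 CPM at 64 h, 90.4 CPM at 96 h (50.6 to 149) and 19.3 CPM at 28 d, where the intervals without injury and at 96 h overlap. In cluster 7 the levels were 3.36, 16.6, 54.1 and 11.0 CPM, and in cluster 8 they were 9.12, 8.40, 105 and 29.2 CPM. All PT-like nuclei without injury together had only 16 C3 UMIs, so the levels without injury in single clusters rest on few counts. Cluster 13 itself had 122 CPM (102 to 146) at 96 h, and without it, a choice made after seeing the data, the 96 h ratio over no injury was 22.7.

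**Figure D4:**
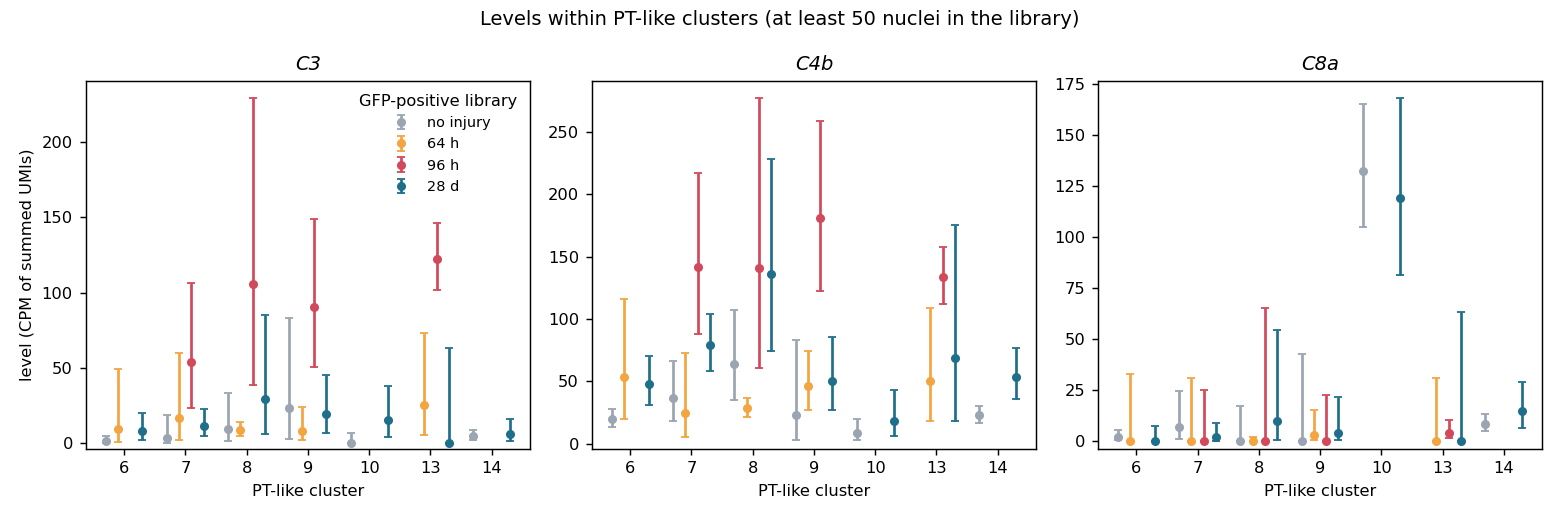
CPM of C3, C4b and C8a within each PT-like cluster with at least 50 nuclei in a GFP-positive library, by time, with exact Poisson 95% intervals. C3 and C4b are high in several clusters at 96 h, and C8a is high in cluster 10 without injury and at 28 d.

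The injury-led cluster carried C3 at every time, including without injury. It had 12 UMIs in 83 nuclei without injury (76.9 CPM, 39.7 to 134), 17 in 330 at 64 h (22.8 CPM, 13.3 to 36.6), 26 in 160 at 96 h (177 CPM, 115 to 259) and 49 in 322 at 28 d (109 CPM, 81.0 to 145). The ratios over no injury were 0.297 (0.134 to 0.682), 2.30 (1.12 to 5.00) and 1.42 (0.746 to 2.94), so the 28 d interval includes 1. The injury markers of this cluster summed to 1173 CPM without injury, and to 1971 (64 h), 2997 (96 h) and 1673 CPM (28 d) after IRI, and its PT markers to 10605, 4171, 3310 and 7472 CPM. Its endothelial markers summed to 57.7, 101, 170 and 121 CPM and its macrophage and dendritic markers to 109, 95.4, 109 and 121 CPM. Fibroblast and mural markers, none of 11 seen without injury, were at 25.5, 20.4 and 6.70 CPM after IRI. The endothelial and injury sums and C3 were all highest at 96 h, and the part of other cells in this C3 level was not tested. At 28 d this cluster, with 9.76% of the nuclei, held 49 of the 91 C3 UMIs of the library (53.8%, 43.1 to 64.4%). PT-like nuclei held 28.6% of them. At 96 h the order was the other way, with 13.8% of C3 UMIs in the injury-led cluster and 81.4% in PT-like nuclei.

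The remaining named classes also had C3 counts, but few. Outside PT-like nuclei and the injury-led cluster the summed named classes had 6.76 CPM without injury, and 13.7 (64 h), 33.5 (96 h) and 17.5 CPM (28 d) after IRI, from 10, 12, 9 and 11 UMIs. Of the 12 at 64 h, 9 came from 26 endothelium-like nuclei and 8 of those from 1 nucleus. In the GFP-negative library the class with the most C3 was fibroblast and mural-like, with 8 UMIs (17.3 CPM, 7.48 to 34.2), 4 of them in 1 nucleus.

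Shares of nuclei with a C3 UMI gave the same order once depth was made equal. With each nucleus thinned to 400 UMIs, C3 was seen in 0.175% of PT-like nuclei without injury, and in 0.379% (64 h), 4.23% (96 h) and 0.519% (28 d) after IRI. Unthinned the shares were 0.699%, 1.46%, 5.29% and 1.15%. At 96 h 640 of 2437 PT-like nuclei were too shallow to enter. TAL-like nuclei had 0%, 0.207%, 0.476% and 0.847% after thinning, from 0, 1, 1 and 2 nuclei with a C3 UMI. Median depths were 1932, 1331, 513 and 983 UMIs in PT-like nuclei and 1090.5, 1028, 407.5 and 670.5 UMIs in TAL-like nuclei. The cluster that held most TAL-like nuclei after injury was led by Lcn2 and Clu, and whether C3 UMIs there are free RNA or the nuclei's own was not tested. In the injury-led cluster the thinned shares were 2.41%, 1.82%, 5.33% and 5.97%.

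C4b is the mouse C4 gene of the classical and lectin pathways. Of the 7 genes it alone was at least 2 times higher in GFP-positive than in GFP-negative nuclei without injury. Over all nuclei it stood at 20.4 CPM from 146 UMIs against 6.50 CPM from 25 UMIs, a ratio of 3.14 (2.05 to 5.01). Within PT-like nuclei the C4b levels were 23.3 CPM from 113 UMIs and, in the GFP-negative library, 3.49 CPM from only 3 UMIs. In PT-like nuclei it had 113 UMIs without injury (23.3 CPM, 19.2 to 28.0), 87 at 64 h (32.1 CPM, 25.7 to 39.6), 197 at 96 h (140 CPM, 121 to 161) and 140 at 28 d (58.5 CPM, 49.2 to 69.1). The 96 h level was the highest, and the 28 d interval stayed above that without injury. The ratios over no injury were 1.38 (1.03 to 1.84), 6.02 (4.75 to 7.65) and 2.51 (1.95 to 3.25).

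C4b was found across the PT-like clusters. At 96 h it stood at 142 CPM in cluster 7, 140 in cluster 8, 181 in cluster 9 and 133 in cluster 13. Without injury the same clusters 7, 8 and 9 had 37.0, 63.9 and 23.0 CPM. At 28 d cluster 6, led by Slc5a2, the glucose transporter of the early proximal tubule, had 47.7 CPM, and cluster 14 had 53.3 CPM, against 19.6 and 22.8 CPM in the same clusters without injury. The late-tubule cluster 10 was lower, at 18.6 CPM at 28 d, against 8.49 CPM without injury.

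The injury-led cluster held few C4b UMIs: 3 without injury, and 5 (64 h), 8 (96 h) and 11 (28 d) after IRI, or 19.2, 6.72, 54.4 and 24.6 CPM. At 28 d PT-like nuclei held 80.0% of the C4b UMIs, against 28.6% of the C3 UMIs. The thinned share of PT-like nuclei with a C4b UMI was 0.917% without injury, and 1.84% (64 h), 5.45% (96 h) and 2.31% (28 d) after IRI, while TAL-like nuclei had 0%, 0.207%, 1.43% and 0%.

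Cfb, the protease of the alternative pathway, was higher at 96 h and close to its level without injury at 64 h. PT-like nuclei had 117 UMIs without injury (24.1 CPM, 19.9 to 28.9), 66 at 64 h (24.4 CPM, 18.8 to 31.0), 129 at 96 h (91.8 CPM, 76.6 to 109) and 82 at 28 d (34.3 CPM, 27.3 to 42.6). Only the 96 h interval was clear of the one without injury. The ratios were 1.01 (0.735 to 1.38), 3.81 (2.94 to 4.93) and 1.42 (1.06 to 1.90), and at 64 h the direction turned with TMM scaling (0.873).

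Cfb was also seen in the GFP-negative library, where PT-like nuclei held 32 of its 63 UMIs. Macrophage and dendritic-like nuclei of the GFP-negative library had 5 UMIs (73.3 CPM, 23.8 to 171), PT-like nuclei stood at 37.3 CPM and endothelium-like nuclei 9 UMIs (19.8 CPM). These intervals overlap for macrophage-like and PT-like nuclei, and TAL-like nuclei were lower at 3.38 CPM from 2 UMIs. In the injury-led cluster Cfb had 4, 23, 11 and 12 UMIs without injury and at 64 h, 96 h and 28 d, or 25.6, 30.9, 74.8 and 26.8 CPM. Thinned shares of PT-like nuclei were 1.00%, 0.757%, 4.06% and 1.37%.

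C3, C4b and Cfb were each seen in few of the PT-like nuclei at 96 h thinned to 400 UMIs. With detection this sparse, most detections fall in different nuclei whether or not the genes are expressed together, so shares are compared instead. C4b was seen in 7 of 76 nuclei with C3 (9.21%, 3.78 to 18.1%), against 91 of 1721 nuclei without it (5.29%). Cfb was seen in 3 of 76 nuclei with C3 (3.95%), against 70 of 1721 without it (4.07%). For Cfb and C4b the shares were further apart, with Cfb in 10 of 98 nuclei with C4b (10.2%, 5.00 to 18.0%), against 63 of 1699 without it (3.71%, 2.86 to 4.72%). In the other GFP-positive libraries Cfb was seen in 0 of 21 nuclei with C4b without injury, 0 of 34 at 64 h and 1 of 49 at 28 d. Among nuclei without C4b the shares with Cfb there were 1.01%, 0.771% and 1.35%. At this depth a nucleus that lacks a UMI of a gene may still express it.

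Cfi, which needs a cofactor to cleave C3b and C4b, had the fewest counts of the tubule genes. PT-like nuclei had 13 UMIs without injury (2.68 CPM, 1.43 to 4.58), 24 at 64 h (8.86 CPM, 5.68 to 13.2), 20 at 96 h (14.2 CPM, 8.69 to 22.0) and 7 at 28 d (2.93 CPM, 1.18 to 6.03). The 64 h and 96 h levels were above the others, with intervals that overlapped each other, and the 64 h interval also overlapped that at 28 d. The ratios over no injury were 3.31 (1.62 to 7.07), 5.31 (2.51 to 11.6) and 1.09 (0.369 to 2.95). The 96 h ratio was 1.86 without cluster 13 and 1.03 at the coarser clustering, so it depends on how the 96 h nuclei are grouped. The injury-led cluster had 0, 7, 3 and 2 UMIs of Cfi at the 4 stages.

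C8a went the opposite way. It encodes a chain of the membrane attack complex, and without injury it lay mainly in PT-like nuclei, and among them mainly in 1 cluster. In the GFP-negative library PT-like nuclei had 90 of the 105 UMIs (105 CPM, 84.3 to 129), against 5.02 CPM in all other nuclei, a ratio of 20.9 (12.0 to 38.8), where 9.21% of genes reached the 4-fold mark. In the GFP-positive library the contrast was smaller, at 20.4 CPM in PT-like nuclei against 8.25 CPM in all other nuclei, a ratio of 2.47 (1.504 to 4.28). That cluster is cluster 10, led by Cyp7b1 and Slc22a19, genes of the straight (S3) segment. Cluster 10 had 78 UMIs in GFP-positive nuclei (132 CPM, 105 to 165) and 86 in GFP-negative nuclei (158 CPM, 126 to 195), a ratio of 0.839 (0.609 to 1.15).

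Over all PT-like nuclei C8a was nonetheless lower in the GFP-positive library, at 20.4 CPM against 104.8 CPM in the GFP-negative library, a ratio of 0.195 (0.145 to 0.262). The makeup differed: cluster 10 gave 218 of 2290 PT-like nuclei in the GFP-positive library and 207 of 384 in the GFP-negative library. Cluster 14, led by Slco1a1 and Slc7a13, had 7.94 CPM in GFP-positive and 28.5 CPM in GFP-negative nuclei. Nearly all C8a UMIs of GFP-negative PT-like nuclei lay in cluster 10, so the GFP-negative level in cluster 14 rests on few counts. Thus the difference between the sorted fractions was small inside cluster 10 and large over the class.

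After injury C8a was nearly gone from PT-like nuclei and was back at 28 d. It had 99 UMIs without injury (20.4 CPM, 16.6 to 24.8), 1 at 64 h (0.369 CPM, up to 2.06), 5 at 96 h (3.56 CPM, 1.16 to 8.30) and 43 at 28 d (18.0 CPM, 13.0 to 24.2). The ratios over no injury were 0.0181 (0.000453 to 0.103), 0.174 (0.0554 to 0.421) and 0.881 (0.601 to 1.27). Cluster 10 itself was nearly empty at the early times, with 10 nuclei and no C8a UMI at 64 h and 23 nuclei and 1 UMI at 96 h. At 28 d it had 178 nuclei and 32 UMIs, or 119 CPM (81.4 to 168), against 132 CPM in GFP-positive nuclei without injury. Fewer nuclei of cluster 10 and less C8a per nucleus cannot be told apart at 64 h and 96 h.

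The remaining nuclei of the early times had little C8a either. Cluster 8, the main PT-like cluster at 64 h, had no UMI in 1065 nuclei, where the floor of 3 counts is 1.57 CPM. The injury-led cluster had none without injury or at 64 h and 96 h, and 2 UMIs at 28 d. Thinned shares of PT-like nuclei with a C8a UMI were 0.480% without injury, and 0.054% (64 h), 0.167% (96 h) and 0.519% (28 d) after IRI, against 4.47% in PT-like nuclei of the GFP-negative library.

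The partners of C8a in the C8 protein were read as well. C8g, the gamma chain, had 22 UMIs in GFP-positive and 19 in GFP-negative nuclei without injury, and in GFP-positive PT-like nuclei its level was 9.97 times (1.60 to 412) that of all other nuclei, where 0.348% of genes were 4 times higher. After injury PT-like nuclei had 1 UMI of C8g at 64 h, 1 at 96 h and 5 at 28 d, against 21 without injury, with ratios of 0.0853 (0.00206 to 0.530), 0.164 (0.00397 to 1.02) and 0.483 (0.142 to 1.32). C8b, the beta chain, had no UMI in any library.

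Counted together, 5 of the 7 genes had at least 20 UMIs over a pair of PT-like sums. At 64 h 2 of the 5 were at least 2 times higher than without injury (C3 and Cfi) and 1 was lower (C8a), against 10.6% and 6.52% of 11771 genes measured. At 96 h 4 were higher and 1 lower, against 23.0% and 6.94% of 11566 genes. At 28 d 2 were higher (C3 and C4b) and none lower, against 5.13% and 3.65% of 11577 genes. The median log2 ratio of the 5 was 0.46, 2.41 and 0.51, beside 0.16, 0.29 and 0.07 over all genes measured. The 3 comparisons share the library without injury, and the genes were chosen with these values known.

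**Figure D5:**
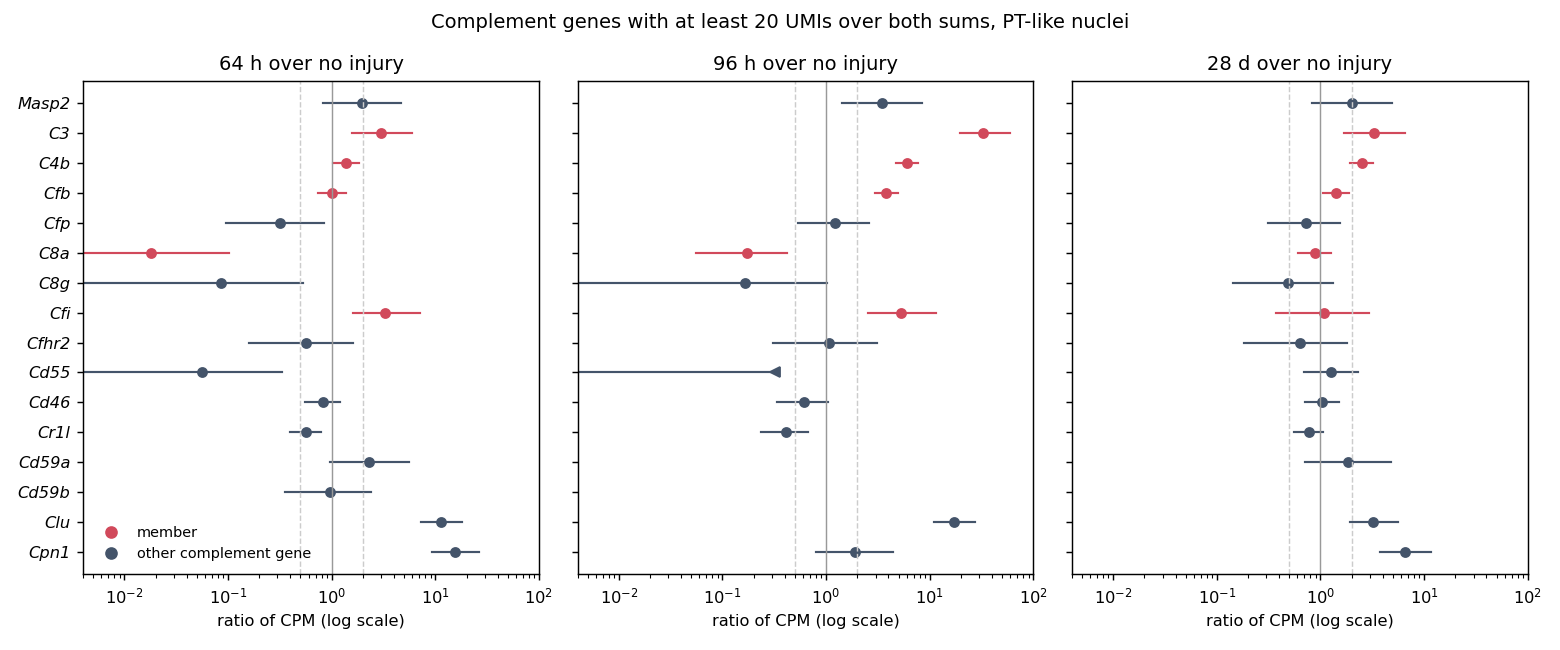
Ratio of CPM in PT-like nuclei at 64 h, 96 h and 28 d over no injury (log axis) with exact 95% intervals, for C3, C4b, Cfb, Cfi and C8a (red) and 11 other complement genes (dark), each drawn where it had at least 20 UMIs over the pair of sums. C1qa and C1qb had too few UMIs and are not drawn. Dashed lines mark a ratio of 0.5 and of 2, an arrow marks the ratio at the floor of 3 counts where the injured library had 0 UMIs, and intervals that reach past the left edge are clipped there. Clu and Cpn1 lie far to the right and Cd55, C8g and C8a far to the left at 64 h.

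Of the 46 other complement genes 11, 9 and 11 had enough counts in PT-like nuclei at 64 h, 96 h and 28 d. The numbers at least 2 times higher were 3, 2 and 4, beside 10.6%, 23.0% and 5.13% of all genes measured. The numbers lower were 3, 3 and 1, beside 6.52%, 6.94% and 3.65% of all genes. Their median log2 ratio was -0.29, 0.11 and 0.34, beside 0.16, 0.29 and 0.07 over all genes measured. Clu (clusterin), an inhibitor of the attack complex and a known injury gene, was higher at all 3 times, with ratios of 11.2 (7.34 to 17.9), 17.0 (11.0 to 27.3) and 3.25 (1.92 to 5.58) on 5.15 CPM without injury. Cpn1, the catalytic chain of carboxypeptidase N, which trims the anaphylatoxins, was at 15.3 times (9.38 to 26.5) the level without injury at 64 h, 1.92 at 96 h and 6.54 times (3.80 to 11.8) at 28 d. Masp2, a protease of the lectin pathway, had ratios of 1.94, 3.45 (1.42 to 8.40) and 2.03 (0.833 to 4.94).

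Of the regulators at the cell surface, Cd55 and Cr1l were lower at 96 h. Cd59a was higher at 64 h, but from 14 UMIs against 11 without injury and with an interval that includes 1. Cd55, which speeds the decay of C3-cleaving enzymes, had 1 UMI at 64 h (ratio 0.0559, 0.00137 to 0.335) and 0 at 96 h, against 32 without injury, where the floor of 3 counts gives a ratio of 0.324 and the exact interval reaches 0.422. At 28 d it was back, at a ratio of 1.27 (0.687 to 2.29). Cr1l, a rodent regulator of C3 cleavage, was lower at 96 h at 0.406 (0.234 to 0.664), and Cd59a, which blocks the attack complex, had a ratio of 2.28 (0.961 to 5.55) at 64 h. Cfp, properdin, which stabilises the alternative pathway enzyme, was at 0.320 (0.0964 to 0.839) at 64 h, 1.23 at 96 h and 0.724 at 28 d.

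Other complement genes were set against the 4-fold mark in each class without injury. In fibroblast and mural-like nuclei of the GFP-negative library C7, a component of the attack complex, was at 429 CPM, a level 96.8 times that of all other nuclei. Colec12, a collectin scavenger receptor, was at 624 CPM (43.1 times), and Serping1, the C1 inhibitor, and C1s1, the C1s protease, stood at 74.4 and 19.1 times the level elsewhere, where 9.71% of genes reached 4 times. Cd93, a receptor of endothelium, was at 178 CPM in endothelium-like nuclei, 25.2 times the rest (10.7% of genes). Clu was at 4.34 times the rest in nuclei like distal convoluted tubule (3.09% of genes). In the GFP-positive library Cd59a was at 8.33 times the rest in TAL-like and 5.08 times in thin-limb-like nuclei (8.35% and 6.48% of genes). In the GFP-negative library Cd59a fell short of the mark in TAL-like nuclei, at 1.91 times the rest (1.26 to 2.83). Endothelium-like nuclei of that library were at 1.94 times the rest.

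Of the 46 other complement genes 22 had enough counts to compare the sorted fractions without injury, and 16 were at least 2 times lower in GFP-positive nuclei, beside 23.4% of all genes. In PT-like nuclei alone 10 had enough counts, of which 5 were lower and none higher in GFP-positive nuclei, beside 12.7% and 4.53% of all genes. The sorted libraries differ in their makeup of cell classes. Ratios were 0.0278 for C7 and 0.0410 for Cd93.

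By likeness of level over 29 sums of 1 class in 1 library, each member was set beside 9840 other genes. The measure was Pearson's r of log2(CPM + 10), given as a description, since the sums share libraries and depth. C3 was most like Gc (0.90), which encodes the vitamin D-binding protein, Six2 (0.85) and A630012P03Rik (0.79), where the source of the Six2 UMIs in mice that carry a Six2 transgene was not tested. C8a was most like Mpv17l (0.82), Slc22a19 (0.82) and Cyp7b1 (0.79), the last pair being the leading genes of cluster 10. C4b was most like Habp2 (0.78), Shcbp1l (0.76) and Slc51a (0.76), Cfb like Cflar (0.83), Rhoc (0.81) and Sirpa (0.81), and Cfi like Cbr1 (0.68), Mrpl49 (0.66) and Med28 (0.65). C1qa and C1qb shared their nearest genes, Gm26740 (0.95 and 0.90), H2-Aa (0.89 and 0.88) and Myo1f (0.85 and 0.86), of which H2-Aa encodes an antigen-presenting molecule of myeloid cells. Only 1 of the 29 sums was macrophage and dendritic-like, that of the GFP-negative library, so the r values of C1qa and C1qb rest largely on that sum.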

How the data were processed

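Nuclei were sorted by GFP, and 10x Genomics Chromium v2 3′ libraries were made from them, per the labels' protocols. The deposited files are UMI counts per gene and barcode. Per the submitters' processing notes the authors used bcl2fastq 2.17, STAR 2.5.1b and Cell Ranger 2.1 with mm10; the series' design text names a pre-mRNA reference, so intronic reads count. No cell types were taken from the authors.

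Barcodes were kept from 200 genes upwards and up to a mitochondrial share of 10%. Clustering used scanpy 1.11.5 (10000 UMIs per nucleus, 2000 variable genes without complement genes, 30 components, 15 neighbours, Leiden resolution 1.0). Clusters were named from marker lists, and the rebuilt names can differ from those of the study. Doublet calls were under 0.5% of nuclei in each GFP-positive library, so the caller did not work there, and none were removed. Libraries shared 9 to 20 barcodes per pair.

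UMIs were summed per class and library. With 1 library per group no test was made. A gene was counted as apart at 2-fold with at least 20 UMIs over a pair of sums. Other complement genes were named if past that fold, or at 4 times the level of all other nuclei with at least 20 UMIs without injury. The members and lists were chosen with earlier results of these data known. Ratios were also scaled with TMM factors from edgeR 4.0.16. Intervals were checked on simulated Poisson counts. These had no clumping of UMIs within nuclei and no variation between libraries, so the check covers counting error only. One other complement gene, included in the counts, is not reported here by name.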

Additional observations from a re-analysis of the deposited data

Results flagged for a closer look

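C3 at 64 h after IRI differed in direction between the injury-led cluster and PT-like nuclei. Its ratio over no injury was 0.297 in the injury-led cluster, from 17 UMIs against 12, and 3.02 in PT-like nuclei, from 27 UMIs against 16. The difference between the 2 groups of nuclei was not tested, since each time has 1 library.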

How the results depend on the processing

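For C3, C4b, Cfb, Cfi and C8a, the direction of each PT-like ratio past 2-fold stayed the same under the alternatives run. These did not cover single other complement genes. The alternative that removed doublet calls could change little. The GFP-positive libraries had 0, 1, 1 and 2 such calls without injury and at 64 h, 96 h and 28 d. The C3 ratio ranged between 2.07 and 3.53 (64 h), 12.4 and 36.5 (96 h), and 2.65 and 4.72 (28 d). At 96 h C3 was at 14.0 at clustering resolution 0.5 and 12.4 with complement genes kept in the clustering. TMM scaling gave 4.46 for C4b and 2.82 for Cfb at 96 h. It moved the log2 ratios by -0.21, -0.43 and -0.12 at 64 h, 96 h and 28 d. Cfi at 96 h was at 1.03 at resolution 0.5 and 1.86 without cluster 13, chosen after seeing the data. C1qa in macrophage and dendritic-like GFP-negative nuclei was at 321 CPM under stricter barcode limits (400 genes, 5% mitochondrial).

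Asking for 50 UMIs left 0 members higher at 64 h and 1 at 28 d. Among the other complement genes it left 0 lower at 64 h, 1 higher and 1 lower at 96 h, and 2 higher and 0 lower at 28 d. A 1.5-fold limit gave 5 lower at 64 h and 2 lower at 28 d, and TMM scaling gave 5 lower at 64 h. The share of all genes at these settings was not computed. Thinning moved 14 of 16 shares of nuclei. Ratios for TAL-like nuclei were not run, because the cluster that held most of them after injury was led by Lcn2 and Clu. Depth limits Cfi and C1q most, with at most 34 and 42 UMIs in a library. No paired analysis was possible because each group has 1 library.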
